A study of Caenorhabditis elegans with 3 samples.

Results

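The 612 genes annotated as tRNA on the nuclear chromosomes of Caenorhabditis elegans were examined for binding of EGL-27 in whole larvae. All genes of that type in the Ensembl annotation of WBcel235 were taken, with no selection by signal. EGL-27 resembles the MTA proteins of NuRD, a complex that remodels nucleosomes and removes histone acetylation. Chromatin immunoprecipitation and sequencing (ChIP-seq) had been done on mixed-sex animals at the L2 stage of strain OP177, with the genotype unc-119(ed3) III; wgIs177, in which a transgene supplies EGL-27 fused at its C-terminus to GFP and FLAG. The single group held 3 biological replicates, and no other genotype, stage or tag was compared. The labels give no promoter for the transgene, and in whole animals the cells behind a summit cannot be told apart.

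Transfer RNAs carry amino acids to the ribosome. Their genes are short and are transcribed by RNA polymerase III from promoters inside the gene, the A box near the 5′ end and the B box in its later part, both bound by the factor TFIIIC. TFIIIC places TFIIIB just upstream of the 5′ end, and a run of T residues past the 3′ end stops the polymerase. In C. elegans most tRNAs are encoded by many identical copies scattered over all chromosomes, with an excess of genes on X, and many copies lie in introns of protein-coding genes. Highly transcribed genes such as these are known to collect reads in ChIP-seq of many unrelated proteins, and no ChIP of another protein was compared here.

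The sequences show the genes and spacers on which the results turn. They were read on ce11 from the RefSeq genome, on the gene's own strand for genes and on the plus strand for spacers. Capitals in a gene mark the best match to the B box consensus GGTTCGANNCC, in which N is any base. F46G11.t2 (X:5801211-5801282) is a proline gene at the third strongest tRNA summit and has 24 identical copies in the genome. F15G9.t1 (X:9743589-9743660) and F15G9.t2 (X:9743747-9743818) are alanine genes of different sequence that share 1 summit. C04A11.t1 (X:13665555-13665673) is a leucine gene with no identical copy.
F46G11.t2: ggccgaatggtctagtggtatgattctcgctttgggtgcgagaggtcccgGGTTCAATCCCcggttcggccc
F15G9.t1: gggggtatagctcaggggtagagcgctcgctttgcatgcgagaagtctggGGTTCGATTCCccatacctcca
F15G9.t2: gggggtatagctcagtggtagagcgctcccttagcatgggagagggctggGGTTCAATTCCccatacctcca
C04A11.t1: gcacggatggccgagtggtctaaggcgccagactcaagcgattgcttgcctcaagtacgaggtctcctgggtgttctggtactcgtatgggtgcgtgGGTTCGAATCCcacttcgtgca

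A pair of spacers between divergent tRNA genes, each with 1 summit inside it, is given with the 11 bases centred on the summit in capitals. The first (X:3036048-3036163) lies between M02F4.t2 and M02F4.t1. The second (X:13046448-13046577) lies between C53C7.t2 and C53C7.t1.
M02F4.t2 to M02F4.t1: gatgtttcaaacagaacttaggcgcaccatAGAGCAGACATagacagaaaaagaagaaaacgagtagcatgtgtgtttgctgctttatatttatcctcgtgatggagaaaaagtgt
C53C7.t2 to C53C7.t1: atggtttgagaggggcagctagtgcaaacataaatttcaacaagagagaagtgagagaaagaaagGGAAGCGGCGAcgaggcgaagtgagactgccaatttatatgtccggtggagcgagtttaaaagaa

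EGL-27 summits were found at a larger share of tRNA genes than of all genes. In the authors' set of 1997 regions kept by the irreproducible discovery rate (IDR, a filter on agreement between replicates), 100 of the 612 genes (16.3%) had a summit within 100 bp, here called bound. Over all 46890 nuclear genes the same rule called 2.8%. The 100 genes were reached by 90 summits, which are 4.51% of the set, while the 164782 bp within 100 bp of a tRNA gene make up 0.164% of the nuclear genome. A longer gene has more sequence in which a summit can fall, so 5′ ends were also compared. A summit lay within 100 bp of 90 tRNA 5′ ends (14.7%), against 1.03% of the 5′ ends of 19973 protein-coding genes and 1.38% of those of all nuclear genes. With other distances the count was 79 genes within 50 bp, 105 within 200 bp and 117 within 500 bp.

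In the IDR set the share was near those of snoRNA and snRNA genes and above those of the other gene classes, tRNA pseudogenes included. Small nucleolar RNA genes, whose RNAs guide modification of ribosomal RNA, were bound at 18.2% (63 of 346), and spliceosomal and other small nuclear RNA genes at 15.5% (20 of 129). Other noncoding classes were lower, with 5.67% of lincRNA genes, 5.45% of genes annotated only as ncRNA (423 of 7764), 5% of antisense RNA genes, 0.383% of microRNA genes (1 of 261), 0.0781% of piRNA genes (12 of 15363) and 0 of 20 ribosomal RNA genes. Protein-coding genes, taken over their whole span, were bound at 3.36%. tRNA pseudogenes, annotated copies that are not counted as functional genes, were bound at 0.957% (2 of 209). Both bound pseudogenes were autosomal, D1046.t1 on IV with a signal of 47.0 and T08B2.t1 on I with a signal of 39.7.

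Most pseudogenes held the same short sequence elements as the genes. A match to the B box consensus with at most 1 mismatch was present in 536 of 612 genes, against 203 of 209 pseudogenes (97.1%). A run of TTTT within 25 bases downstream was present at 99% of the bound and 98.6% of the unbound genes, against 91.9% of the pseudogenes. Of 72-base windows taken every 1000 bases over the genome, 0.298% held a B box on the forward strand. Within the 1997 strongest regions of each replicate, the share of genes with a summit exceeded that of pseudogenes by 5.72, 13.9 and 12.7 percentage points in replicates 1, 2 and 3. The mean difference was 10.8 ± 4.43 (SD, n = 3). It was positive in all 3 replicates, and the exact permutation test over replicates (two-sided) gave p = 0.25, the smallest that 3 replicates allow, so no difference tested in this way could pass 0.05. Few pseudogenes lie on X (29 of 209, none of them bound). On the autosomes alone 43 of 336 genes (12.8%) and 2 of 180 pseudogenes (1.11%) were bound, and the replicates' mean difference was 7.67 percentage points.

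**Figure D1:**
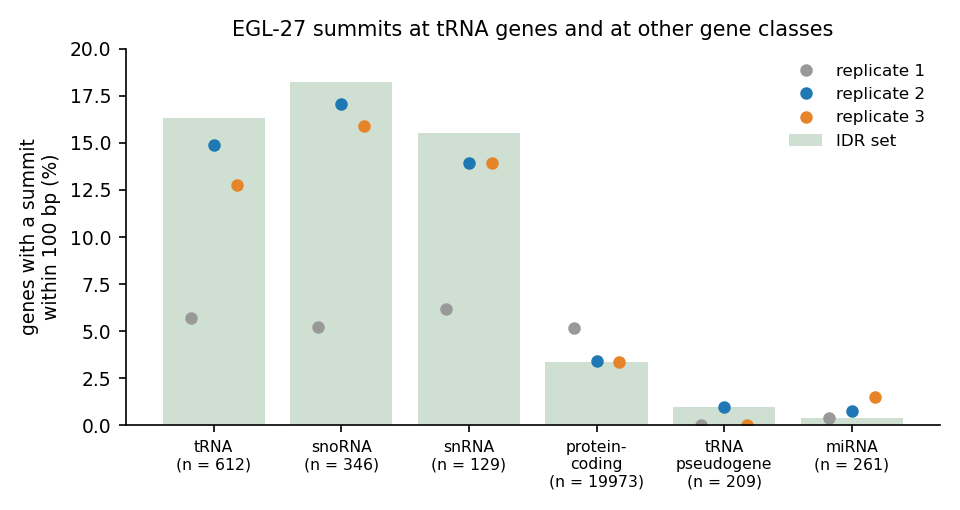
Share of genes (%) with an EGL-27 summit within 100 bp, by gene class. Bars give the IDR set and points the 1997 strongest regions of each replicate. tRNA genes (16.3%) stand beside snoRNA and snRNA genes (18.2% and 15.5%), and tRNA pseudogenes (0.957%) and miRNA genes (0.383%) are near 0. In replicate 1 the tRNA share is 5.72%, close to the 5.15% of protein-coding genes.

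The replicates differed in how much of this they showed. Among the 1997 strongest regions, tRNA genes with a summit numbered 35, 91 and 78 in replicates 1, 2 and 3 (mean 68 ± 29.3, SD, n = 3). These are shares of 5.72%, 14.9% and 12.7%, beside 2.95%, 2.77% and 2.7% of all nuclear genes. Replicate 1 was the lowest of the 3 for tRNA genes and the highest for protein-coding genes, at 5.15%, against 3.43% in replicate 2 and 3.34% in replicate 3. In replicate 1 lincRNA genes, at 6.19%, were above tRNA genes. Its deposited list is also the shortest, with 13245 regions against 30000 in each of the others. In the whole lists 110, 334 and 336 tRNA genes had a summit (18.0%, 54.6% and 54.9%), beside 16.4%, 28.1% and 28% of all nuclear genes. In the whole list of replicate 1 the tRNA share was thus near that of all genes. tRNA genes have a median length of 72 bp and protein-coding genes 2027 bp, and 5′ ends were not compared in the replicate lists. The files hold no read counts, so the part of sequencing depth in this was not tested.

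Most bound genes were supported by replicates 2 and 3. The IDR set was made from these same replicates, so the overlap is a description and no independent support. Of the 100 bound genes, 49, 98 and 95 had a summit within 100 bp in the whole lists of replicates 1, 2 and 3, with 44 in all 3 lists, 54 in 2 lists and 2 in 1 list. Among the strongest 1997 regions, 28, 66 and 70 of the bound genes had one, 18 of them in all 3 replicates and 11 in none. The IDR peaks at tRNA genes overlapped the strongest regions of replicates 1, 2 and 3 in 31.1%, 67.8% and 72.2% of cases, against 32.1%, 78.2% and 79.5% of the other IDR peaks.

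Within the IDR set the summits at tRNA genes were about as strong as the others. Signal, the authors' value for each region, has no stated scale and is used only within a list. It had a median of 49.7 (range 34.9 to 129) at the 90 tRNA summits and 50.8 (range 34.8 to 378) at the 1907 others. The strongest tRNA summit ranked 107 in the set. With the set cut by signal into 4 parts of 499 or 500 regions, the parts held 17, 26, 23 and 24 summits at tRNA genes, from the strongest to the weakest. The median rank percentile of regions at tRNA genes within each replicate's strongest 1997 exceeded that of the other regions by 9.69 points in replicate 1 and differed by -2.15 and -3.28 points in replicates 2 and 3. The mean difference of 1.42 ± 7.18 (SD, n = 3) was smaller than the spread between replicates (exact permutation test, two-sided, p = 1), and its sign rested on replicate 1, since it was -2.72 without that replicate. Over the whole lists, which reach far below the IDR threshold, regions at tRNA genes ranked higher than the others, by a mean of 30.5 points (exact permutation test, two-sided, p = 0.25, the smallest possible).

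tRNA genes extended well below the IDR threshold. In the authors' list of 30000 peaks and background regions from the pooled replicates, 366 tRNA genes (59.8%) had a summit within 100 bp, beside 27.6% of all nuclear genes. Of the 512 unbound genes, 266 had such a summit, with a signal between 6.72 and 34.5 (median 18.3), and 246 had none. The 1997 strongest regions of this list had the signal range of the IDR set, 378 to 34.8. Region 1998 had 34.7. A pooled summit within 100 bp of an unbound gene was thus below the lowest IDR signal by construction. By rank in this list, summits at tRNA genes made up 4.51% of regions 1 to 1997, 3.60% of regions 1998 to 5000, 1.36% of regions 5001 to 10000, 0.60% of regions 10001 to 20000 and 0.29% of regions 20001 to 30000. More than 1 unbound gene in 2 thus had a weaker region in the pooled list.

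The strongest summit lay upstream of C28G1.t1, a glutamate gene in an intron of C28G1.2 (X:8836113-8836184), with a signal of 129. Its summit was 99 bp from the 5′ end, just inside the distance used. The gene had a signal of 7.28 in replicate 1 and 58.6 in replicate 2, and replicate 3 had no summit within 100 bp. Next came a signal of 125 between M02F4.t2, another glutamate gene (X:3035976-3036047), and M02F4.t1, a glycine gene. There the replicates had signals of 8.52, 41.4 and 76.9. At the proline gene F46G11.t2 the signal was 114, with 19.6 and 35.7 in replicates 1 and 2, and the summit was 72 bp upstream. The isoleucine gene C42D8.t1 (X:5085622-5085695) had a signal of 102 with the summit inside the gene, and 15.4, 29.3 and 55.6 in replicates 1, 2 and 3. The glutamine gene R04A9.t1 (X:410391-410462), in an intron of ZK1193.2, had 101, with 22.2 and 54.9 in replicates 2 and 3 and no summit in replicate 1. The isoleucine gene F57F5.t1 (V:12002176-12002260), which has no identical copy, had 100.2, with 10.3, 43.7 and 36.9 in replicates 1, 2 and 3. The scale of the signal may differ between lists, so the replicates are set side by side by rank. In replicates 1 and 2 F46G11.t2 ranked 42 and 366, and C28G1.t1 900 and 95. In replicates 1, 2 and 3 C42D8.t1 ranked 93, 585 and 194, M02F4.t2 554, 247 and 67, and F57F5.t1 314, 209 and 540. R04A9.t1 ranked 1028 and 207 in replicates 2 and 3. Replicate 1 thus had neither always the highest nor always the lowest rank.

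The other 9 of the 15 strongest summits ranged in signal from 80.9 to 98.2. The alanine genes F15G9.t1 and F15G9.t2 shared 1 of 98.2 in an intron of him-4, which encodes the extracellular matrix protein hemicentin. Leucine genes stood at 3 of the 9, C04A11.t1 (signal 89.2), C04E7.t1 (87.4) and C04A2.t1 (84.7). The lysine gene C33G3.t2 had 87.5. The asparagine gene F41D9.t3 had 87.3, and lies in an intron of sulp-3, which encodes an anion transporter. The last were the serine gene C53C7.t1 (83.5), the proline gene T23F1.t2 (81.4) and the arginine gene C18A11.t2 (80.9). The first 2 of these summits lay in spacers shared with the serine gene C53C7.t2 and the lysine gene T23F1.t1. That of C18A11.t2 lay 82 bp past the 3′ end, and its region did not overlap the gene. Of the 15, C04A2.t1 was on II, F57F5.t1 and T23F1.t2 were on V, and the other 12 were on X. On the remaining chromosomes the strongest were the cysteine gene C37A2.t1 on I, in an intron of the cyclin E gene cye-1 (signal 71.9), the proline gene W09D6.t2 on III, in an intron of rsa-2 (60.9), and the lysine gene B0350.t1 on IV (52.2).

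**Figure D2:**
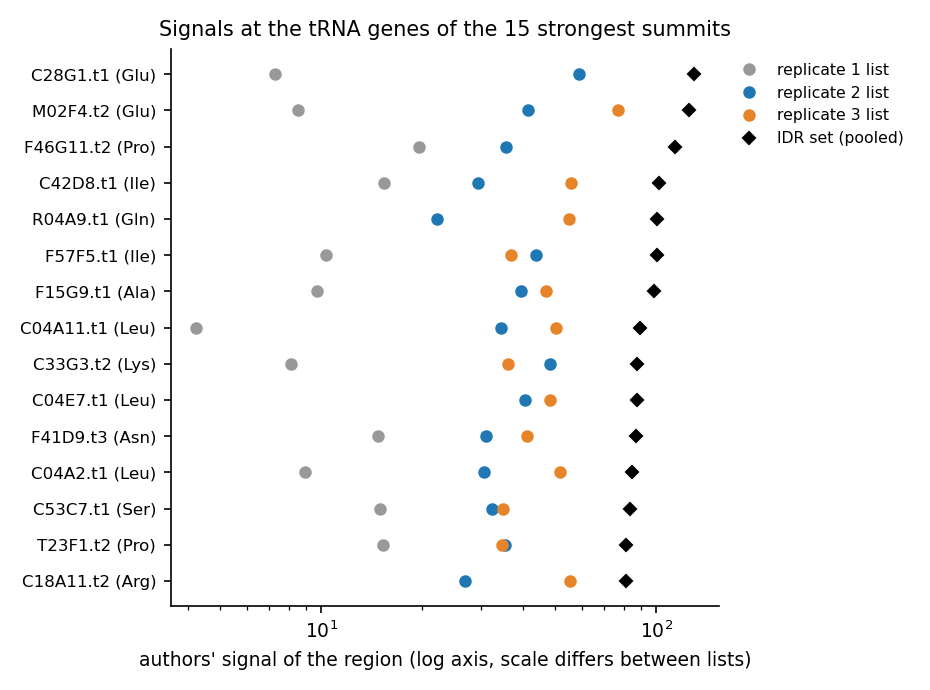
Authors' signal (log axis) at the tRNA genes of the 15 strongest IDR summits, with the amino acid in brackets. Diamonds give the IDR set and circles each replicate's own list, and a missing circle means no summit within 100 bp in that list. Values of replicate 1 run from 4.22 at C04A11.t1 to 19.6 at F46G11.t2. The scale may differ between lists, so heights are not compared across replicates.

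Members near the 100 bp limit covered a wide range of signal. Just inside it were rte-5 at 92 bp (signal 39.7), C16C8.t2 at 93 bp (36.1) and C28G1.t1 at 99 bp (129). Just outside were F23D12.t2 at 105 bp (35.1), F46G11.t1 at 118 bp (114) and T04D3.t2 at 127 bp (38.2). F46G11.t1 is an identical copy of F46G11.t2 on the other side of the same summit, and replicate 3 had a summit within 100 bp of it with a signal of 56.0.

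Summits lay around the 5′ end of the gene. For the nearest gene, the median position was -2 bp from the 5′ end over 90 summits (quartiles -27.25 and 33.75 bp), and 55 summits (61.1%) fell between -50 and 25 bp. Upstream of the gene were 45 summits, at a median of 28 bp from the 5′ end, 33 were inside it and 12 downstream. The median signal was 52.9 upstream, 43.9 inside and 51.7 downstream. Measured from the start of the best B box match, the median summit was at -60 bp. In the strongest regions of replicates 1, 2 and 3 the median position was -22, 4.5 and -15 bp (mean -10.8 ± 13.7, SD, n = 3). For the 351 nearest-gene summits of the pooled list it was 6 bp. The medians of single replicates thus fell on either side of the 5′ end.

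**Figure D3:**
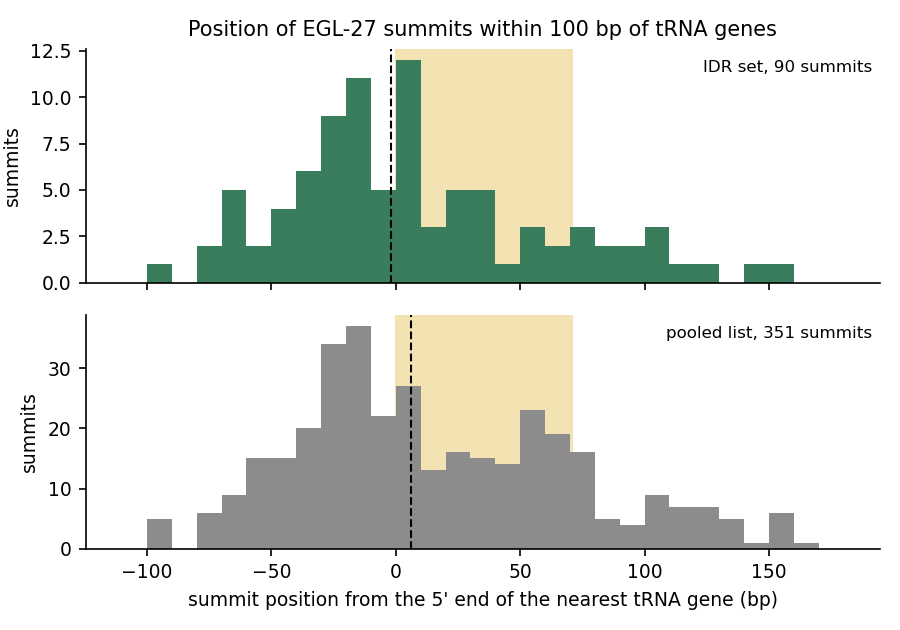
Number of summits by position (bp) from the 5′ end of the nearest tRNA gene, upstream to the left, in the IDR set and in the pooled list. The shaded band marks the median gene length of 72 bp and the dashed line the median position, -2 bp in the IDR set and 6 bp in the pooled list. In the IDR set 55 of 90 summits lie between -50 and 25 bp.

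Some summits lay between a pair of close tRNA genes. In 10 of the 90 cases 1 summit was within 100 bp of 2 genes, which were 66 to 130 bp apart, and in all 10 it lay in the spacer. The genes diverged in 5 pairs, ran in tandem in 3 and converged in 2, and 3 pairs were of identical sequence. In the spacer printed for M02F4.t2 and M02F4.t1 the summit was 36 bp from M02F4.t2 and 81 bp from M02F4.t1. In that of C53C7.t2 and C53C7.t1 it was near the middle, 71 and 60 bp from the genes. Among all 57 neighbouring pairs at most 200 bp apart, at least 1 gene was bound in 7 of 34 divergent pairs, 5 of 10 tandem pairs and 4 of 13 convergent pairs. Genes with another tRNA gene within 500 bp were bound at 18.8% (32 of 170) and genes alone at 15.4% (68 of 442). In the pooled list the order was the other way, with 51.8% of clustered and 62.9% of lone genes.

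tRNA genes on X were bound more often than those on autosomes. On X 57 of 276 genes (20.7%) were bound, and on autosomes 43 of 336 (12.8%), with 10 of 66 on I, 9 of 57 on II, 9 of 64 on III, 5 of 71 on IV and 10 of 78 on V. Over all nuclear genes the same rule called 5.13% on X and 2.45% on autosomes. These include the tRNA genes, 57 of 309 bound genes on X and 43 of 1003 on autosomes, and gene classes were not matched. Over protein-coding genes alone the shares were 4.47% on X and 3.18% on autosomes, so the share was higher on X there as well. In the strongest regions of replicates 1, 2 and 3 the share of X tRNA genes was 7.61%, 18.8% and 18.1%, against 4.17%, 11.6% and 8.33% of autosomal ones. The difference was 6.82 ± 3.19 percentage points (SD, n = 3), positive in 3 of 3 replicates (exact permutation test, two-sided, p = 0.25, the smallest possible). It was 3.76 points with summits within 50 bp. Bound genes had a median signal of 54.7 on X and 45.4 on autosomes.

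X also holds more tRNA genes, 15.6 per Mb against 4.07 per Mb on autosomes. Of the 447 IDR summits on X, 52 (11.6%) were at tRNA genes, against 38 of 1550 on autosomes (2.45%). How far this came from the number of genes or from the higher share bound was not tested. The higher share on X held for both kinds of host. For genes inside protein-coding genes it was 19.8% on X (19 of 96) and 11.9% on autosomes (23 of 194), and for genes between protein-coding genes 21.1% on X (38 of 180) and 14.4% on autosomes (20 of 139).

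**Figure D4:**
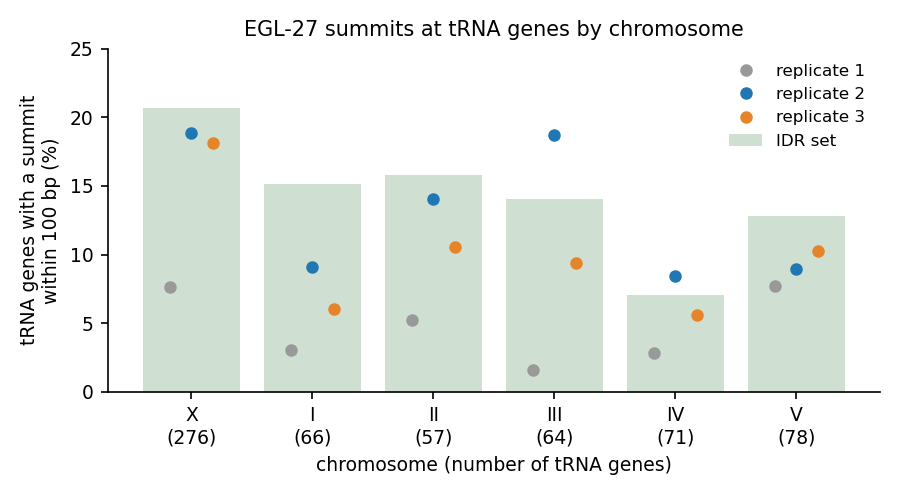
Share of tRNA genes (%) with a summit within 100 bp by chromosome, with the number of genes in brackets. Bars give the IDR set and points the 1997 strongest regions of each replicate. X has the highest bar (20.7%) and IV the lowest (7.04%), and the replicates spread widely on III, from 1.56% to 18.8%.

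The share bound differed between intronic and intergenic tRNA genes by less than the spread between replicates. Of 290 tRNA genes within the span of a protein-coding gene, here called intronic, 42 (14.5%) were bound, against 58 of 319 intergenic ones (18.2%), and 0 of 3 that overlap an end of a gene. The difference, intronic minus intergenic, was -1.10, 0.44 and -4.70 percentage points in replicates 1, 2 and 3 (mean -1.79 ± 2.64, SD, n = 3, exact permutation test, two-sided, p = 0.5). With the whole lists its sign turned, to 1.11. Intronic genes on the opposite strand of the host were bound at 20 of 123 and those on the same strand at 22 of 166. Bound genes lay a median of 1664 bp from the nearest protein-coding 5′ end and unbound genes 1779 bp. Within 1000 bp of such an end 14.1% were bound, and beyond it 17.3%.

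Genes with at most 1 mismatch to the B box consensus, sought anywhere on the gene's own strand, were bound at 16.6% (89 of 536). Genes whose best match had 2 or more mismatches were bound at 14.5% (11 of 76). The difference in the replicates was 2.67 ± 0.73 percentage points (SD, n = 3), positive in 3 of 3 (exact permutation test, two-sided, p = 0.25, the smallest possible). It was 0.12 points with summits within 50 bp. The split is by closeness to 1 consensus, and genes with more mismatches, such as R04A9.t1 with 3, may still hold a B box. In tryptophan genes such as sup-5 the counted match began at base 24, not in the later part of the gene. Genes with a perfect match were bound at 67 of 394 and those with 1 mismatch at 22 of 142. An A box was found in the first 30 bases of 593 genes, of which 100 were bound, while none of the 19 without it was bound and 2 of these were in the pooled list. The 100 bases upstream had a median AT content of 54% at bound and 59.5% at unbound genes. EGL-27 has a zinc finger of the GATA type. GATAAG, a site bound by many GATA factors (either strand), was present in those bases at 3 of 100 bound and 46 of 512 unbound genes (8.98%), beside 3.67% of 100-base windows over the genome. Within 100 bp of the summit it was present at 12.2% of the tRNA summits and 12.7% of the others, beside 7.22% of windows of that length over the genome.

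Binding was spread over nearly all amino acids. RefSeq names the amino acid for 607 of the genes and gives none for the other 5, and 19 amino acids had at least 1 bound gene. Beside 16.3% of all tRNA genes, the highest shares were 4 of 14 phenylalanine, 3 of 12 tryptophan, 11 of 46 lysine, 9 of 39 leucine and 9 of 42 proline genes. The lowest shares above 0 were those of histidine (1 of 20), cysteine (1 of 13), asparagine (2 of 20) and tyrosine (2 of 19), and the gene for selenocysteine was unbound. The order differed in the strongest regions of the replicates, where the mean share of all tRNA genes was 11.1%. There proline (17.5%) and arginine (15.2%) were highest, with phenylalanine at 11.9% and tryptophan at 8.33%. Of the standard amino acids only methionine had 0 bound genes, of 20. None of these 20 had a summit in the strongest regions of any replicate. In the pooled list 13 of the 20 methionine genes (65%) had a summit, beside 59.8% of all tRNA genes. Their signals were between 8.19 and 31.0, under the lowest IDR signal as at any unbound gene with a pooled summit. Methionine tRNAs serve both initiation and elongation, and the annotation used does not say which gene is which.

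The bound tryptophan genes include sup-5 and sup-7, known for mutations that turn them into amber suppressors. The summit of sup-5, in an intron of fli-1 on III, had a signal of 54.0, with 18.4 and 31.5 in replicates 2 and 3. That of sup-7 on X had 39.0, with 14.8 and 15.5 in replicates 2 and 3. The third was rtw-5 on X, with a signal of 35.1, and 9.88 and 19.7 in replicates 2 and 3. None of the 3 had a summit within 100 bp in replicate 1. The sequence of sup-5 has 10 identical copies, of which 2 were bound. The copies sup-24 and sup-29 on IV were unbound.

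Identical genes differed in binding. The 612 genes have 200 distinct sequences, 143 of them present once. The 20 sequences with 10 or more copies account for 317 genes, of which 59 were bound. Each of the 20 had bound copies and none had all copies bound, with shares from 8.33% to 30%. Of the 39 sequences with more than 1 copy and at least 1 bound, 0 had all copies bound. The sequence with most copies, a glycine gene, was bound at 5 of 29. The proline sequence printed for F46G11.t2 was bound at 7 of its 24 copies, with signals from 35.1 to 113.7. Of the 17 other copies 6 had a pooled summit, with signals from 6.72 to 25.1, and 11 had no pooled summit within 100 bp. Of these 11, F46G11.t1 (118 bp) and F23D12.t2 (105 bp) lay just beyond 100 bp from the IDR summit that made an identical neighbour bound. The copies share the gene's own sequence, A box and B box included, letter for letter.

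By number of copies, genes of unique sequence were bound at 10.5% (15 of 143), those with 2 to 5 copies at 22.0% (18 of 82), 6 to 10 copies at 15% (15 of 100), 11 to 20 copies at 16.5% (31 of 188) and over 20 copies at 21.2% (21 of 99). How reads that match several copies were placed is not given in the sources used here. Its part in these shares was not tested.

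**Figure D5:**
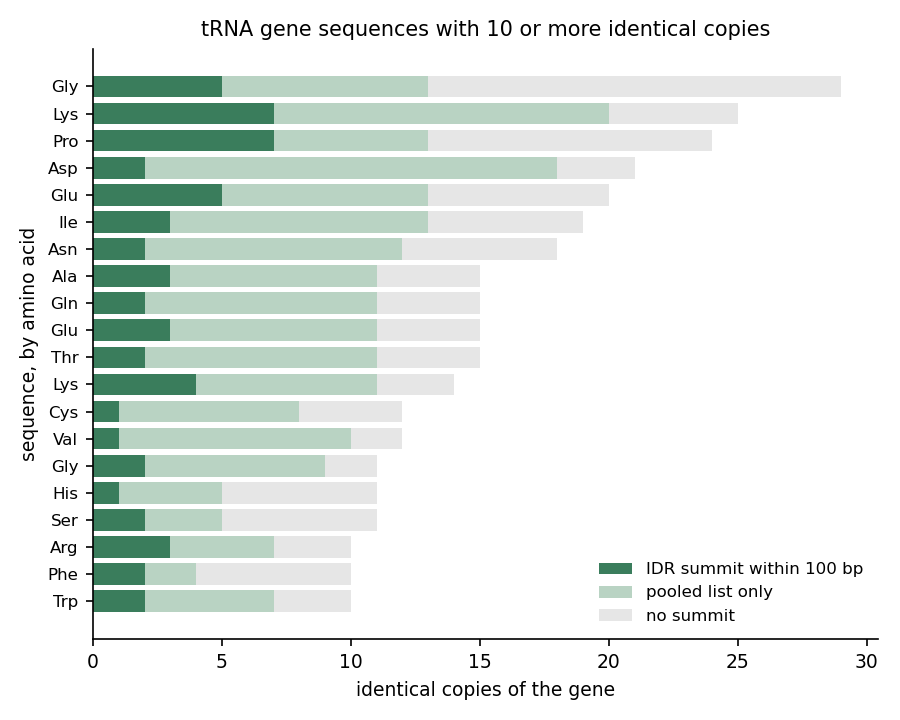
Copies of each tRNA gene sequence present 10 or more times, by amino acid, divided into those with an IDR summit within 100 bp, those with a summit in the pooled list alone, and those with neither. Every bar has bound and unbound copies, from 5 of 29 in the longest glycine bar to 2 of 10 for tryptophan.

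Genes for the machinery that makes and processes tRNAs were bound at a share near the background. Of a list of 17 such genes 16 were matched, and 1 of them (6.25%) had an IDR summit from 1000 bp upstream to 200 bp downstream of its 5′ end, beside 6.04% of all protein-coding genes. This was mafr-1, the homologue of Maf1, a repressor of RNA polymerase III (I:10622710-10623059, signal 38.1, summit at -288 bp). Subunits of the polymerase (rpc-1, rpc-2, rpc-11), of TFIIIC (tftc-1, tftc-3, tftc-5) and of TFIIIB (brf-1, tbp-1) had none.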

How the data were processed

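EGL-27 ChIP-seq was measured in 1 group of 3 biological replicates, per the labels. Notes deposited beside the files say that each replicate, and all of them pooled, gave a list of peaks and background set against a control, from which the authors kept a set at an optimal IDR threshold. Its aligner, caller and threshold were not given in the sources used here. The control was not analysed here. The authors deposited for every region a signal, with no named scale, and a −log10 q-value, which was not used. The lists on ce10 were not used. Depth is unknown, because no read counts are in the files. The labels call the replicates biological and say no more of their source, so p-values rest on these 3 samples alone. Differences of the same sign in all 3 give p = 0.25 in the exact permutation test, whatever their spread.

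Genes came from Ensembl release 115 (WBcel235, the same assembly as ce11), and amino acids and sequence from RefSeq, which matched all 612 tRNA genes with the same span. A gene counted as bound when an IDR summit lay within 100 bp of it. Replicates were compared on their 1997 strongest regions, with an exact permutation test that flips the sign of each replicate's difference. A B box was a match to its consensus with at most 1 mismatch anywhere in the gene, and an A box was sought in the first 30 bases. Alternatives were other distances, lists, numbers of regions, host rules and motif rules, and leaving out each replicate, for which the IDR peaks overlapping the strongest regions of both others were kept. The genes named are those of the 15 strongest tRNA summits, the strongest of each chromosome, the 3 just inside and outside 100 bp, and members of the polymerase III list with a summit. The tryptophan genes, B0212.t1, the bound pseudogenes and the sequences printed were named after their values were seen, as were the comparison with pseudogenes and the proline copies chosen. The members and lists were chosen with earlier results of these data known. The scripts (Python 3.11.15, pandas 2.3.3, numpy 2.4.6, matplotlib 3.10.9) were tested on simulated data.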

Additional observations from a re-analysis of the deposited data

How the results depend on the processing

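Counts of tRNA genes followed the list used. The 100 bound genes became 48 with the stronger 998 IDR peaks, 366 with the whole pooled list, 24 with IDR peaks found in every replicate, and 26 to 52 when each replicate was left out. The 90 summits at tRNA genes became 43, 355, 20, and 22 to 45 under the same settings. By construction these settings hold fewer or more regions, and the share of the IDR peaks at tRNA genes was 4.31% in the stronger 998, 4.01% of the 499 found in every replicate, and 3.61%, 4.41% and 3.89% without replicates 1, 2 and 3. The mean of 68 genes per replicate became 260 with the whole lists and 35.3 with the 998 strongest regions. The difference between intronic and intergenic genes reversed to 1.11 percentage points with the whole lists, and the cause was not tested. The rank difference ran from -2.72 to 3.77 when a replicate was left out, with the lowest without replicate 1, and was 2.62 with 200 bp and 30.5 with the whole lists. With summits within 50 bp the X difference was 3.76, the intronic difference -0.40 and the B box difference 0.12 points, and with 200 bp the intronic difference was -2.88. The intronic difference ran from -2.90 to -0.33 when a replicate was left out. A perfect B box gave a difference of 1.35 points. The difference from pseudogenes was 36.7 points with the whole lists. The median position ran from -21 to -12 bp when a replicate was left out, against -2 bp in the whole IDR set, with the lowest without replicate 3, and was 0 bp with summits within 200 bp and 6 bp in the pooled list, on the other side of the 5′ end but within the spread between replicates. Of 62 alternatives over 9 results, 45 were counted as unchanged, 15 as moved and 2 as reversed. Unchanged means the same direction and side of the threshold for a tested difference, a count within 1.5 times, and a median position within 1 SD of the replicates' medians, whatever its sign. With 3 replicates the smallest exact permutation p is 0.25, and with 2 it is 0.5, so no alternative could pass 0.05.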

Other observations

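Some unbound genes were strong in single replicates. Of the 512 unbound tRNA genes, 39 had a summit within 100 bp in the 1997 strongest regions of at least 1 replicate. Of these, 38 had it in 1 replicate and 1 in 2 replicates. Among the 38 were F23D12.t2, F46G11.t1 and C16B8.t3, unbound because they lay 105, 118 and 138 bp from an IDR summit. The gene with 2 was B0212.t1, a proline gene on IV (IV:3552189-3552260), with signals of 5.80 in replicate 1, 18.6 in replicate 2 and 9.19 in replicate 3. Its pooled signal was 29.7, under the lowest IDR signal of 34.8, as at any unbound gene with a pooled summit within 100 bp. In the whole lists 32 unbound genes had a summit in all 3 replicates, and 181 had one in none. In the strongest regions of replicates 1, 2 and 3 the share of unbound genes with a summit was 1.37%, 4.88% and 1.56%. Over all nuclear genes, bound ones included, it was 2.95%, 2.77% and 2.7%. In the whole lists these shares were 11.9%, 46.1% and 47.1% of unbound genes, beside 16.4%, 28.1% and 28% of all nuclear genes. Only in replicate 2 was the unbound share above that of all genes in both kinds of list.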
